A study of Mus musculus with 2 samples.

Results

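The 9 genes described here encode cathepsins and other proteins of the lysosome, the acid compartment in which cells break down proteins, lipids and sugars. They are Ctsa, Ctsb, Ctsd, Ctsl, Ctss, Ctsz, Hexa, Grn and Psap, 9 of the 17592 genes measured, chosen by name and all found in the deposited table. Expression was measured in dissociated cells of the dentate gyrus, a region of the hippocampus, in 1 library labelled old, from C57BL/6 mice of 16 months, and 1 labelled young, from C57BL/6 mice of 3 months. Dissociated cells that did not take up propidium iodide, a dye that enters dead cells, were collected by sorting. Their transcripts were tagged at the 3′ end in 10x Genomics droplets, each with a unique molecular identifier (UMI) that is counted once. The labels name no genotype or treatment for either group, and neither sex nor number of animals is stated in the labels. With 1 library at each age, no test between ages is possible, and cells of a library are not replicates. Every interval below is a 95% interval that covers counting error only.

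The old library held 1430 cells and 7451506 UMIs, and the young library 2463 cells and 16217559 UMIs. Their cells were largely the same: 1401 cell barcodes occurred in both, and 1113 of the 1141 old cells of brain classes had a partner of the same class among the 1148 young ones. The values below are therefore those of the young library, and the old library is read only as a second table of these cells. By their markers the young brain-class cells were 358 microglia-like, 304 astrocyte-like, 129 endothelial-like, 79 mature oligodendrocyte-like, 70 pericyte-like, 58 neuroblast or immature granule neuron-like (called neuroblast-like here), 48 oligodendrocyte precursor-like, 14 smooth muscle-like, 10 perivascular macrophage-like and 5 B cell-like cells. A further 73 were left unnamed, and 1315 cells with almost no mitochondrial transcripts formed clusters of their own. The microglia-like cluster had all 12 microglia markers, and none of the 9 genes was among the 2000 variable genes that formed the clusters.

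Lysosomal enzymes are made in the endoplasmic reticulum, most are tagged with mannose 6-phosphate, and they become active in the acid of the lysosome. Microglia, the resident phagocytes of the brain, take up debris, synapses and dead cells and degrade them there, and inherited loss of several of these proteins causes storage disease or neurodegeneration in humans. The transcription factors TFEB and TFE3 bind a palindromic E-box, known as the CLEAR element, near the start of many lysosomal genes, and PU.1 is the central transcription factor of the myeloid lineage.

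All 9 genes were higher in microglia-like cells than in any of the other 6 classes of at least 20 cells, and in each case the counting interval lay apart from that of the next class. Together they made up 1.95% of all UMIs of microglia-like cells, 195 UMIs per 10,000 (194 to 197). In the other classes their sum ran from 29.9 UMIs per 10,000 in pericyte-like cells to 8.58 in neuroblast-like cells, so that the microglial sum was 6.53-fold to 22.8-fold higher. These sums are of all cells. In pericyte-like cells, 6 of the 70 cells had 5 or more UMIs of the microglia markers. Those 6 cells held 98.7% of the class's Ctss UMIs, 66.9% of its Ctsd UMIs and 19.5% to 52.4% of those of the other members. A UMI marks the 3′ end of a transcript and does not scale with transcript length. Levels of different genes are set beside each other here as counted, and differences in capture between genes were not tested.

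The endoproteases held most of the microglial sum. Ctsd encodes cathepsin D, the aspartic protease of the lysosome, and lies at chr7:142375911-142388038 on the minus strand (GRCm38). It had 80.2 UMIs per 10,000 in microglia-like cells (79.1 to 81.2), rank 8 of the 13818 genes with a UMI there, and 41.0% of the UMIs of the 9 genes. Single microglia-like cells had 19.7 Ctsd UMIs per 10,000 at the lowest, 77.3 at the median and 168 at the highest. Ctss encodes cathepsin S, a cysteine protease that stays active at neutral pH and trims the invariant chain of MHC class II, and lies at chr3:95526786-95556403 on the plus strand. It had 41.4 UMIs per 10,000 (40.6 to 42.1), rank 25, with 5.65 in the lowest cell, 38.3 in the median cell and 105 in the highest. Ctsd and Ctss were the 2 members found in each of the 358 microglia-like cells.

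The other cysteine cathepsins followed at a lower level. Ctsl (chr13:64359337-64370890, minus strand), the broad endopeptidase cathepsin L, had 14.9 UMIs per 10,000 (14.5 to 15.4) in microglia-like cells. Ctsz (chr2:174427493-174439039, minus strand), the carboxypeptidase cathepsin Z, had 14.5 (14.0 to 14.9), an interval that overlaps that of Ctsl. Ctsb (chr14:63122462-63145923, plus strand), cathepsin B, which acts as an endopeptidase and a dipeptidyl carboxypeptidase, had 11.6 (11.2 to 12). These 3 genes were thus close to each other and well below Ctss and Ctsd.

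The remaining members encode exopeptidases, glycosidases and precursor proteins. Psap (chr10:60277627-60302597, plus strand) encodes prosaposin, which is cleaved into the saposins that present sphingolipids to their hydrolases, and had 12.7 UMIs per 10,000 (12.3 to 13.1) in microglia-like cells. Grn (chr11:102430315-102437048, plus strand) encodes progranulin, the secreted and lysosomal precursor of the granulins, and had 8.50 (8.16 to 8.84). Hexa (chr9:59539540-59565109, plus strand), the alpha subunit of beta-hexosaminidase, had 6.23 (5.94 to 6.52). Ctsa (chr2:164832873-164841032, plus strand) encodes cathepsin A, a serine carboxypeptidase that also protects beta-galactosidase and neuraminidase, and was the lowest at 5.50 (5.23 to 5.78), rank 249. Even so, 323 of the 358 microglia-like cells (90.2%) had at least 1 UMI of all 9 genes. No member shared more than 1.69% of its 3′ sequence with another annotated gene.

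**Figure D1:**
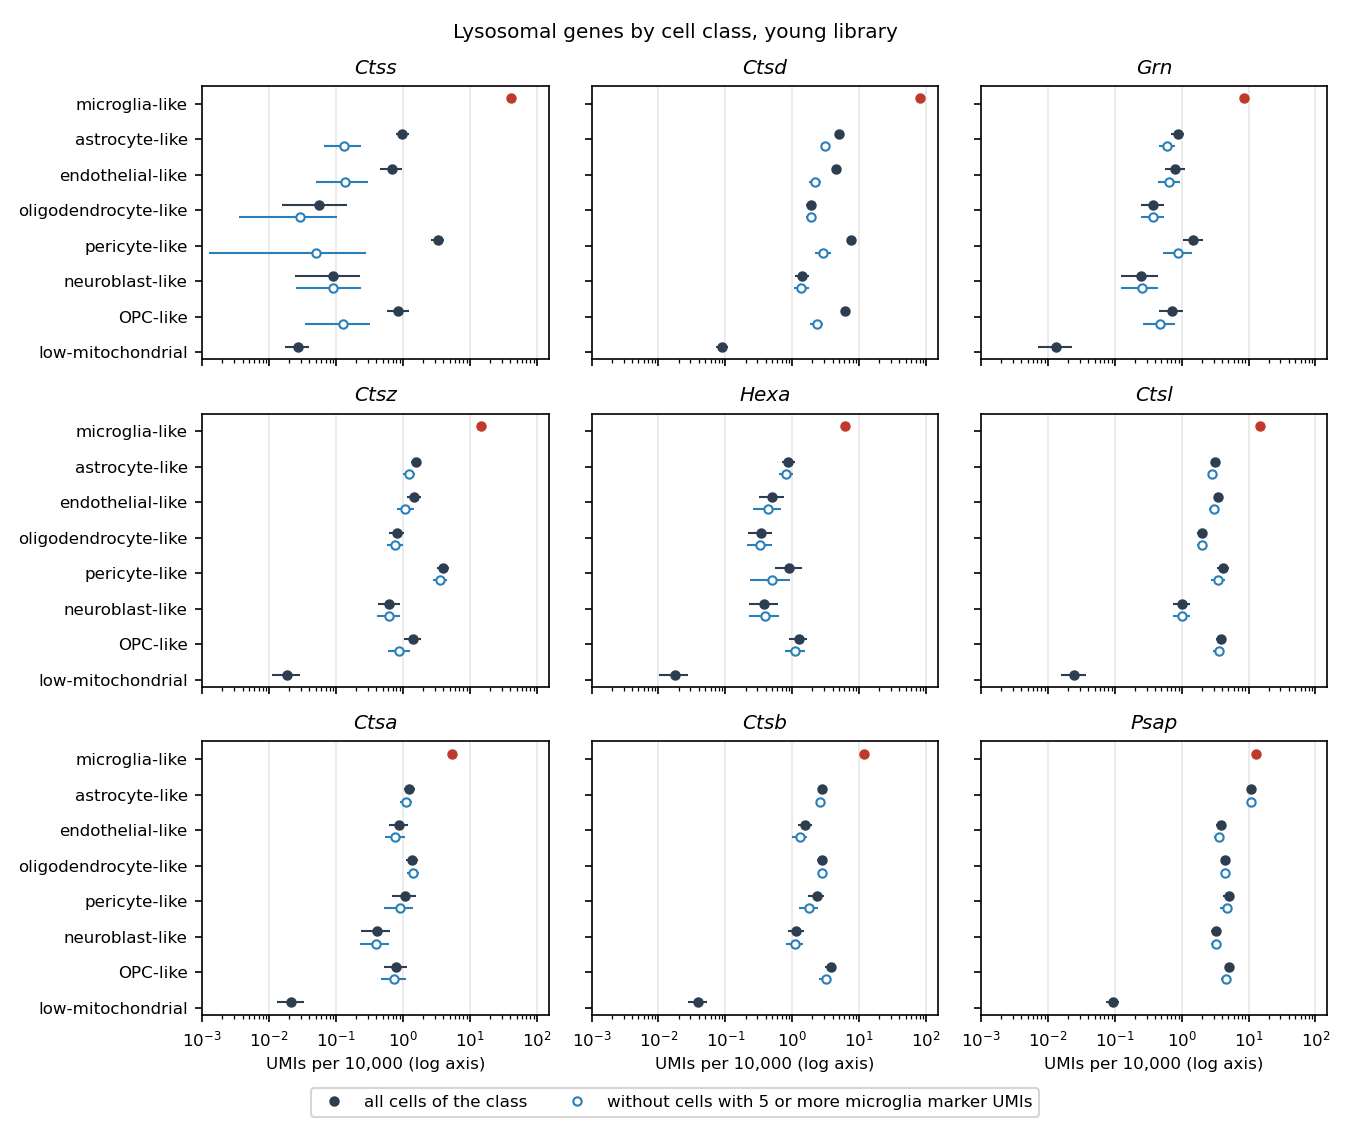
UMIs per 10,000 of each of the 9 genes by cell class in the young library, on a log axis, with 95% Poisson intervals that cover counting error only; filled points are all cells of a class (red for microglia-like cells), and open points leave out cells with 5 or more UMIs of the microglia markers (OPC, oligodendrocyte precursor; oligodendrocyte-like, mature). Of the classes drawn, each gene with all cells was highest in microglia-like cells, from 80.2 for Ctsd to 5.50 for Ctsa, and lowest in the low-mitochondrial cells.

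Against the pool of the 707 other brain-class cells that are not myeloid, all 9 genes passed 2-fold on the log2 ratio of UMIs per 10,000 with a pseudocount of 0.1. Of all 12229 genes with at least 20 UMIs, 8.83% passed 2-fold upward in this comparison. The median log2 ratio of the 9 members was 3.08, and that of all genes was -0.47. Because each age has 1 library, these are sizes, not tests.

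The members differed widely in how far they stood above the other classes. Ctss was 55.0-fold higher (48.4 to 62.8), at 41.4 UMIs per 10,000 in microglia-like cells against 0.752 in the others. Ctsd was 20.3-fold higher (19.2 to 21.5), at 80.2 against 3.94. Grn was 12.5-fold, Ctsz 10.2-fold and Hexa 9.59-fold higher. Ctsl, Ctsa and Ctsb formed a group at 5.43-fold, 5.35-fold and 4.83-fold. Psap came last, at 12.7 against 6.06 UMIs per 10,000, a 2.10-fold ratio (1.99 to 2.22) on which the call depends: it missed 2-fold with a pseudocount of 1 (log2 0.96), with cells weighted equally (0.84) or with the unnamed cluster among the other cells (0.92).

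**Figure D2:**
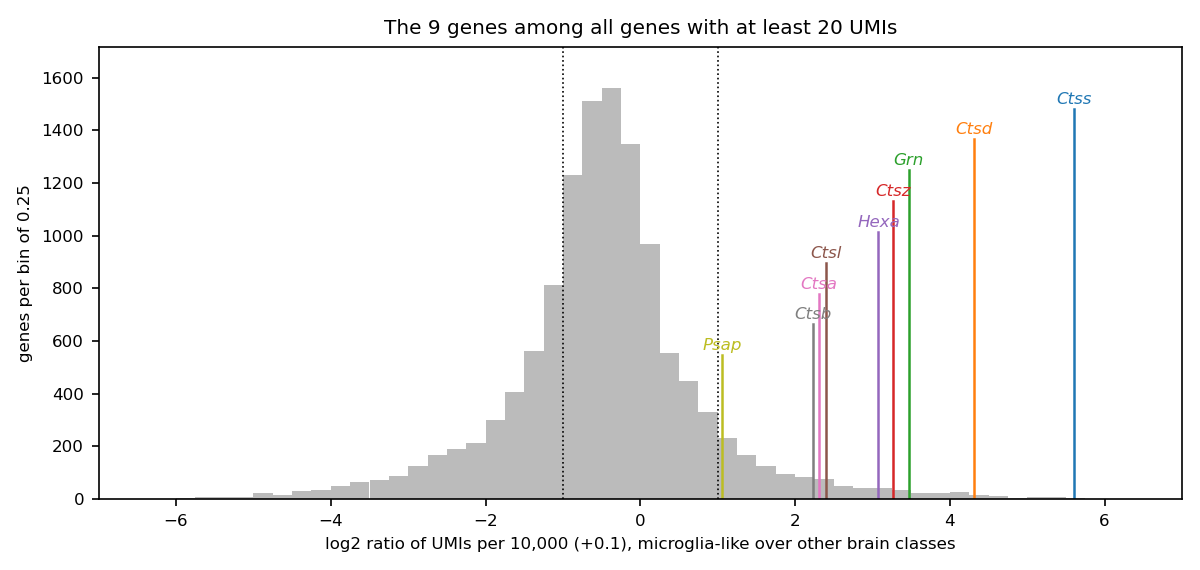
Histogram of the log2 ratio of UMIs per 10,000 (pseudocount 0.1), microglia-like over the other non-myeloid brain classes of the young library, for the 12229 genes with at least 20 UMIs, in bins of 0.25; coloured lines mark the 9 genes and dotted lines mark 2-fold. The 9 genes lay between 1.06 for Psap and 5.61 for Ctss, while the median of all genes was -0.47.

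The first 300 bases around the transcription start were searched for 3 motifs, since the members moved together across classes. RefSeq promoters (GRCm38.p6, 250 bases before to 50 after the start) were given for 8 of the 9 members, with 10 starts in all; Ctsb had none. The CLEAR-type E-box TCACGTGA, found in 0.974% of 32851 promoters on either strand, occurred at the second start of Ctsa, with a pair of copies at -13 and 4, and at the start of Ctsd, at -99. The shorter E-box CACGTG, found in 7.15% of promoters and contained in TCACGTGA, occurred in addition at -245 in Ctsd and at -236 in Ctsl. The PU.1-type motif GAGGAAGT, found in 3.20% of promoters, occurred on the reverse strand at -2 in Ctss. A match is a description of these letters and not a binding site. The stretches that hold the longer motifs are printed 5′ to 3′ on the strand of the gene, with the motif in capitals.
Ctsa, chr2:164833720-164833787, plus strand: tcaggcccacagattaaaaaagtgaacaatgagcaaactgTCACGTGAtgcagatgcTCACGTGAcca
Ctsd, chr7:142387879-142387966, minus strand: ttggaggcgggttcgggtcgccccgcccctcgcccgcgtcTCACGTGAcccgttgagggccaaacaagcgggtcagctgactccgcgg
Ctss, chr3:95526744-95526800, plus strand: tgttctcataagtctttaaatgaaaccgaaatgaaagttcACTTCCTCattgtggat

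Other lysosomal genes were described with 10 lists of 80 genes, of which 70 had at least 20 UMIs. Of these 70, 27 were at least 2-fold higher in microglia-like cells and 5 at least 2-fold lower, against 8.83% of all genes higher and 26.1% lower. Of the 20 glycosidases 8 were higher and none lower, of 6 nucleases and phosphatases 5 were higher, of 5 further cysteine cathepsins 3 were higher and 1 lower, and of 10 sorting and binding partners 1 was higher and 3 lower. The pseudocount kept some genes with few UMIs inside 2-fold, in both directions. By the ratio of counts the glycosidases Hyal2 and Hexdc were at 0.298 (0.175 to 0.487) and 0.310 (0.173 to 0.530). The sulfatase Galns was at 4.04 (1.44 to 13.9). Of the 5 higher nucleases and phosphatases, Rnaset2a shared 86.3% of its 3′ sequence with other annotated genes and Rnaset2b 41.9%. The lists were chosen with results of these data known, so their counts are a description.

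The genes at the top of these lists included a processing enzyme and an inhibitor of the cathepsins. Lgmn encodes legumain, the protease that processes several cathepsins to their mature form, and had 30.4 UMIs per 10,000 in microglia-like cells against 1.36 in the others (22.3-fold). Cst3 encodes cystatin C, a secreted inhibitor of cysteine cathepsins, and had 492 against 68.3 UMIs per 10,000 (7.20-fold). Protease and inhibitor were therefore both high in the same class. Cst3 also reached 192 UMIs per 10,000 in astrocyte-like cells, whose Ctss and Ctsb were at 0.984 and 2.81.

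Among other genes of the lists, Pld4, a phospholipase D family exonuclease, was 46.5-fold and Pla2g15, the lysosomal phospholipase, 17.5-fold higher in microglia-like cells. Ctsc, which activates serine proteases, was 12-fold and Ctsh, an aminopeptidase, 6.51-fold higher. Ctsh had 7.0 UMIs per 10,000 in microglia-like cells and 5.97 in endothelial-like cells, unlike Ctss and Ctsd. Cst7, cystatin F, an inhibitor that acts inside the cell, had 32 UMIs in microglia-like cells and 0 in the others, at least 11.9-fold higher if 3 UMIs are set as the limit that a count of 0 allows over the group. Tfe3 was 4.77-fold higher, at 1.44 against 0.301 UMIs per 10,000, while Tfeb had 0.320 against 0.199 and did not pass 2-fold.

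The 5 list genes called at least 2-fold lower in microglia-like cells, with the pseudocount, were 2 proteases, 2 genes of the mannose 6-phosphate pathway and a receptor. Gpr37l1, a receptor named among the binding partners of prosaposin, had 0.125 UMIs per 10,000 in microglia-like cells, against 16.8 in astrocyte-like and 9.67 in oligodendrocyte precursor-like cells. Igf2r, the large mannose 6-phosphate receptor, had 1 UMI in microglia-like cells, against 56 in the others (ratio 0.0200, 0.000498 to 0.116). Gnptab, which encodes the enzyme that starts the mannose 6-phosphate tag, had 0.0696 against 0.317 UMIs per 10,000. M6pr, the small mannose 6-phosphate receptor, lay within 2-fold at 0.999 against 0.693. Ctsk, cathepsin K, had 1 UMI in microglia-like cells, against 48 in the others, 37 of which lay in mature oligodendrocyte-like cells. Cpq, a carboxypeptidase, had 0.195 against 0.537 UMIs per 10,000.

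Levels in the other classes were read beside the microglia markers, since free RNA can enter any droplet. The summed level of the 12 markers was 369 UMIs per 10,000 in microglia-like cells. As a share of it, the markers stood at 7.69% in pericyte-like, 3.27% in oligodendrocyte precursor-like, 2.76% in astrocyte-like, 2.46% in endothelial-like, 0.202% in mature oligodendrocyte-like and 0.140% in neuroblast-like cells. In the 6 classes each marker had at least 1 UMI, except Siglech and Trem2, which were at 0 in neuroblast-like cells. Cells with 5 or more marker UMIs numbered 35 of the 688 cells of these classes, and 12 of the 35 were called doublets, of 21 doublets among the 688.

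Ctss in the other classes lay almost wholly in those cells. Of its 235 UMIs there, 207 were in the 35 cells. In pericyte-like cells Ctss stood at 3.30 UMIs per 10,000 with all cells and at 0.0494 (0.00125 to 0.275) without the 6 marker-carrying cells, a count of 1 UMI in 64 cells. Without such cells Ctss ranged from 0.0289 to 0.136 UMIs per 10,000 over the 6 classes, or 0.0698% to 0.329% of the microglial level. The markers then ranged from 0.112% to 0.520%, a share that leaving these cells out holds low by itself. A Ctss UMI was found in 100% of microglia-like cells (99 to 100), at a median of 7993 UMIs per cell, and in 6.90% of neuroblast-like cells (1.91 to 16.7), at a median of 8473.5. The part of free RNA in the Ctss UMIs that remained, 1 to 11 in a class, was not tested.

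Ctsd behaved differently, in that a part of its level remained. In pericyte-like cells it had 7.62 UMIs per 10,000 with all cells and 2.92 (2.22 to 3.76) without the marker-carrying ones, and in oligodendrocyte precursor-like cells 6.24 and 2.31 (1.81 to 2.91). Over the 6 classes it ranged from 1.37 to 3.09 once these cells were left out. That is 1.71% to 3.85% of the microglial level. Psap, Ctsa, Ctsb and Ctsl changed less: in astrocyte-like cells 42.2% of Ctsd UMIs but 8.04% of Psap, 14.1% of Ctsl and 15.0% of Ctsb UMIs came from the marker-carrying cells.

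**Figure D3:**
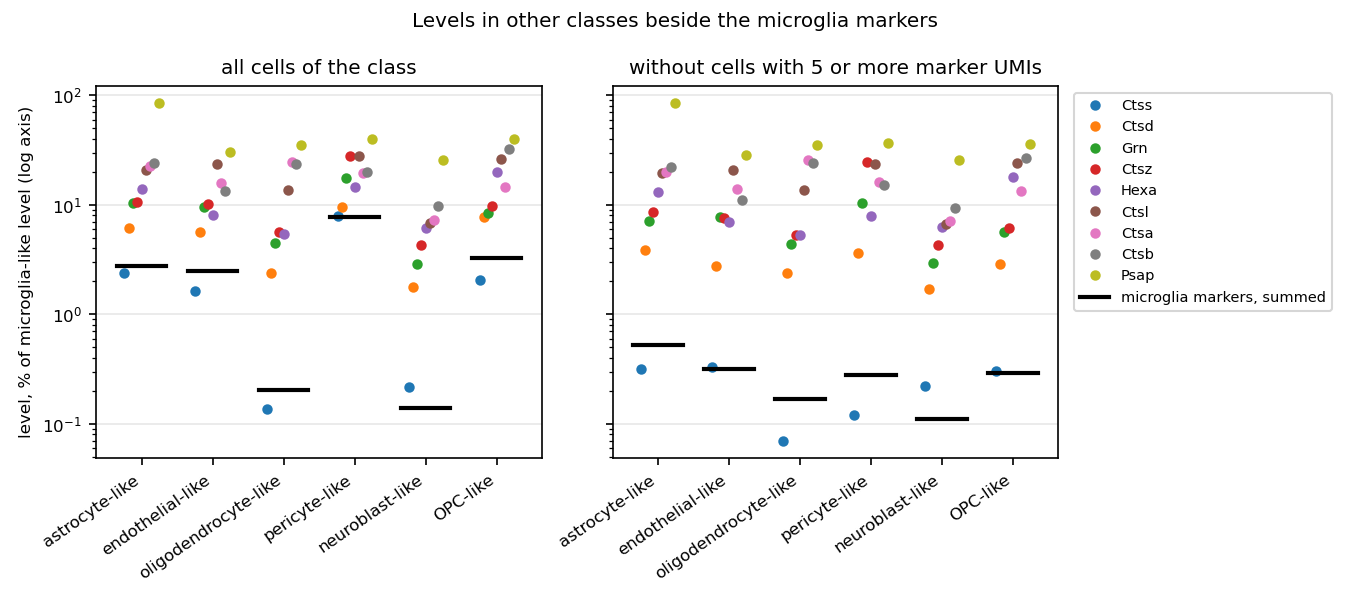
Level of each gene in the 6 other classes of the young library as a percent of its microglia-like level, on a log axis, with all cells (left) and without cells that had 5 or more microglia marker UMIs (right); black lines give the summed level of the 12 markers on the same scale. With all cells, Ctss lay near the marker line in each class and the other 8 genes lay above it, with Psap at 85.3% in astrocyte-like cells; on the right the line is held low by the cells left out.

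Outside the myeloid classes, astrocyte-like cells stood out for Psap. They had 10.9 UMIs per 10,000 (10.2 to 11.6), against 4.18 in the other non-myeloid classes, a 2.60-fold ratio (2.37 to 2.84). This was 85.3% of the level in microglia-like cells, and the microglia-like to astrocyte-like ratio was 1.17 (1.09 to 1.26). Psap was the only member at least 2-fold higher in astrocyte-like cells than in the other non-myeloid classes, where 10.6% of genes were. None was at least 2-fold lower, as 16.0% of genes were, and the shares without the marker-carrying cells were 10.9% and 17.5%. Its Psap level was 10.8 (10.1 to 11.5) without the marker-carrying cells, and the next class, pericyte-like cells, was then at 4.70 (3.8 to 5.74). The astrocytic level of Psap stood beside that of Gpr37l1, for which astrocyte-like cells were the highest of the 7 classes.

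Pericyte-like cells stood out for Ctsz. They had 4.03 UMIs per 10,000 (3.25 to 4.93), against 1.22 in the other non-myeloid classes, 3.31-fold (2.61 to 4.16). A Ctsz UMI was found in 74.3% of pericyte-like cells, at a median of 3206 UMIs per cell, and in 36.2% of neuroblast-like cells, at a median of 8473.5. Ctss, Ctsd and Grn were also at least 2-fold higher in pericyte-like cells, 4 of 9 members where 7.84% of genes were, and none was at least 2-fold lower, where 19.9% were. Without the marker-carrying cells Ctsz alone stayed past 2-fold, at 3.56 against 0.990 (3.6-fold), while Ctsd was at 1.30-fold, Grn at 1.86-fold and Ctss at 0.451-fold, the last on 1 UMI. The shares of all genes were then 7.86% higher and 21.6% lower.

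Endothelial-like cells had no member past 2-fold in either direction, where 9.59% of genes were higher and 21.9% lower (9.9% and 22.7% without the marker-carrying cells). Their highest ratio was that of Ctsl, at 3.55 against 2.61 UMIs per 10,000, 1.36-fold (1.14 to 1.62).

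In the oligodendrocyte lineage no member passed 2-fold in either direction on the log2 scale with the pseudocount once the marker-carrying cells were left out. Of all genes, 9.38% were then higher and 12.4% lower in oligodendrocyte precursor-like cells (9.04% and 11.6% with all cells), and 6.31% higher and 27.5% lower in mature oligodendrocyte-like cells. Hexa was highest among non-myeloid classes in oligodendrocyte precursor-like cells, at 1.25 UMIs per 10,000 (0.907 to 1.67). This was 2.17-fold over the others but just under 2-fold once the pseudocount was added. The Hexa interval overlaps that of pericyte-like cells, at 0.899 (0.557 to 1.37). Ctsb was also highest in oligodendrocyte precursor-like cells, at 3.74 (3.13 to 4.44), an interval that overlaps that of astrocyte-like cells. Ctsa was highest in mature oligodendrocyte-like cells, at 1.36 (1.1 to 1.66), and did not differ beyond counting error from astrocyte-like cells at 1.25. With all cells Ctsd and Ctss were at least 2-fold lower in mature oligodendrocyte-like cells, as were 27.7% of genes, while no member was higher, as 6.19% were. Without the marker-carrying cells Ctsd had a ratio of 0.789. The Ctss ratio of counts was then 0.225, on 2 UMIs against 30, and missed 2-fold only through the pseudocount (log2 -0.83).

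Neuroblast-like cells were the lowest of the 7 classes for 7 of the 9 genes, and mature oligodendrocyte-like cells for Ctss and Hexa. Compared with the other non-myeloid classes, 7 members were at least 2-fold lower in neuroblast-like cells, where 19.4% of genes were, and none was higher, where 9.62% were. Of these 7, Ctsa, Ctsb and Ctsl stayed so without the marker-carrying cells, when 19.4% of genes were lower and 9.86% higher. The ratio of counts was then 0.459 for Grn, on 11 UMIs, and 0.493 for Ctsz, on 27 UMIs. Both missed 2-fold only through the pseudocount. Ctsd was at 0.559 and Ctss at 0.847, the last on 4 UMIs. Ctsl had 1.01 UMIs per 10,000 in neuroblast-like cells (0.735 to 1.35), against 3.02 in the others. Psap was the most abundant member in these immature neurons, at 3.27 (2.76 to 3.85), found in 84.5% of them. Below the microglia-like cells the order of classes was loose: of 45 pairs of neighbours in the 9 orders, 37 had overlapping intervals. This holds for the lowest ranks too: only for Ctsl did the interval of the lowest class lie apart from the next. For Ctss the lowest class and the next had 4 UMIs each.

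With all cells of each class, the make-up of the lysosomal transcripts differed between classes. The marker-carrying cells enter these shares, with 42.2% of the Ctsd UMIs of astrocyte-like and 66.9% of those of pericyte-like cells. In pericyte-like cells Ctsd had 178 UMIs and Psap 118 with all cells, but 59 and 95 without the marker-carrying ones. Ctsd and Ctss gave 41.0% and 21.2% of the 9 genes' UMIs in microglia-like cells, and Psap gave 6.51%. In astrocyte-like cells Psap gave 39.8% and Ctsd 18.1%, and in neuroblast-like cells Psap gave 38.1% and Ctsd 16.4%. Ctsb gave 5.95% in microglia-like cells and 19.5% in mature oligodendrocyte-like cells. Ctsz gave 7.39% in microglia-like cells and 13.4% in pericyte-like cells.

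**Figure D4:**
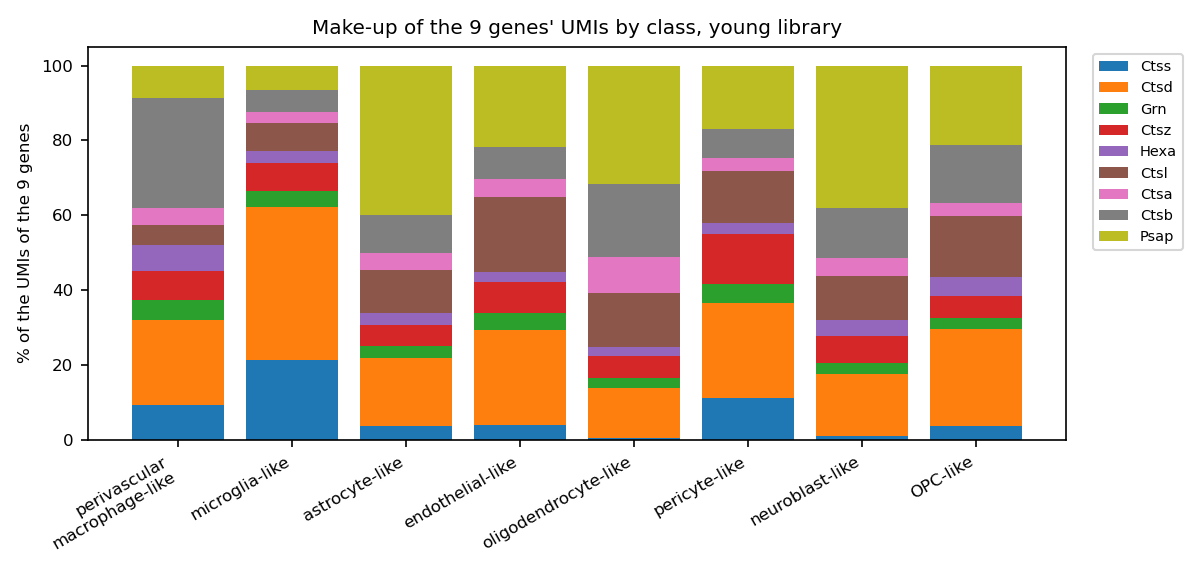
Share of each gene in the UMIs of the 9 genes, in percent, by cell class of the young library, with all cells of a class (marker-carrying cells included). Ctsb took 29.5% in perivascular macrophage-like cells, Ctsd 41.0% in microglia-like cells and Psap 39.8% in astrocyte-like cells.

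Perivascular macrophages live along brain vessels and are the closest relatives of microglia in the brain. The 10 perivascular macrophage-like cells carried all 8 markers of that class, and the 9 genes summed to 125 UMIs per 10,000 in them (115 to 136), against 195 in microglia-like cells. All 10 barcodes were also in the old library. Of 8480 genes, 10.3% passed 2-fold upward in the macrophages relative to microglia-like cells and 30.5% passed it downward. Of the 9 genes, Ctsb passed it upward and Ctsd, Ctss and Ctsl downward. These counts are near the shares of all genes, so the number of members past 2-fold is not particular to the 9.

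Ctsb was the 1 member at least 2-fold higher in the macrophages. Single macrophage-like cells had 5.67 Ctsb UMIs per 10,000 at the lowest, 35.1 at the median and 80.7 at the highest, against 0, 10.4 and 58.4 in microglia-like cells. The ranges overlapped, and 8 of 10 macrophage-like cells lay above the microglial median. Summed, Ctsb was at 36.9 against 11.6 UMIs per 10,000, 3.17-fold (2.70 to 3.70). Ctsc, the aminodipeptidase cathepsin C, was higher too, at 18.1 against 2.64 UMIs per 10,000.

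Ctsd, Ctss and Ctsl were lower in the macrophages. Ctsd had 2.18 UMIs per 10,000 in the lowest macrophage-like cell, 23.6 at the median and 70.3 in the highest, against 19.7, 77.3 and 168 in microglia-like cells, and none of the 10 reached the microglial median. Its summed ratio was 0.357 (0.298 to 0.423). For Ctss none of the 10 cells reached the microglial median either, and the ratio was 0.28 (0.209 to 0.366), at 11.6 against 41.4. Ctsl was at 6.76 against 14.9, a ratio of 0.454 (0.308 to 0.645).

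The other members differed less between these cells. The ratio of macrophage-like over microglia-like cells was 0.664 (0.482 to 0.893) for Ctsz, 0.771 (0.519 to 1.1) for Grn, 0.840 (0.620 to 1.11) for Psap, 1.03 (0.672 to 1.52) for Ctsa and 1.40 (0.998 to 1.92) for Hexa. With 26 to 49 UMIs in the 10 cells, the last 4 intervals include 1 but run from 0.519 at the lowest to 1.92 at the highest. They cover counting error only, so the spread between the 10 cells could leave room for larger differences. The microglia markers stood at 60.5% of the microglial level in the macrophage-like cells, with Tmem119 and Sall1 at 0, and their part in these values was not tested.

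**Figure D5:**
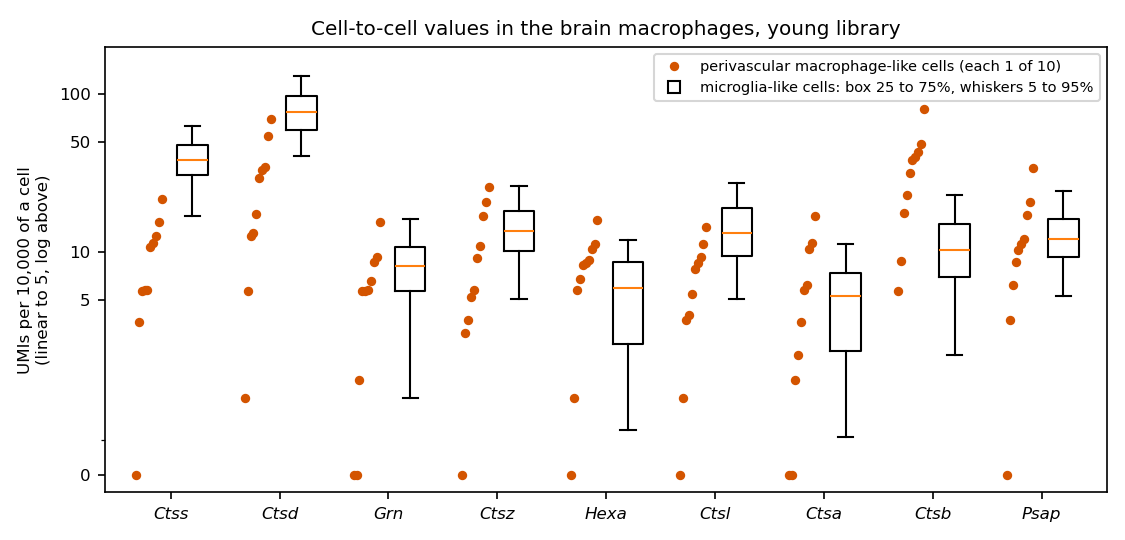
UMIs per 10,000 of a cell for the 9 genes in the young library, on an axis that is linear to 5 and logarithmic above; orange points are the 10 perivascular macrophage-like cells, and boxes show the 25th to 75th percentile, median and 5th to 95th percentile of the 358 microglia-like cells. The macrophage points lay mostly above the microglial median for Ctsb (8 of 10) and wholly below it for Ctsd and Ctss (0 of 10).

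Within the microglia-like cells the 9 genes varied little between sub-clusters. At a finer clustering these cells and a few others split into a sub-cluster of 164 cells whose leading genes included C1qb, C1qa, Ctss, Ctsd and P2ry12 and a sub-cluster of 201 cells whose leading genes included Ccl4, Atf3, Fos, Ccl3 and Junb. The ratio of the first over the second ran from 0.868 for Ctsb (0.810 to 0.930) to 1.05 for Hexa (0.956 to 1.15). None of the members was 2-fold apart, and of 8454 genes 0.0237% were at least 2-fold higher and 0.0946% at least 2-fold lower. Ctsd stood at 79.6 against 80.9 UMIs per 10,000, and Ctss at 41.2 against 41.4.

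From cell to cell, pairs of members went together weakly in the 358 microglia-like cells. Over the 36 pairs Pearson's r of the log values had a median of 0.17 and ran from -0.04 for Ctsl and Psap to 0.41 for Ctsb and Ctsz, with Ctsl and Ctss at 0.38. These cells share a library, and depth entered some genes: r with the log of the cell's UMIs was 0.51 for Ctss, 0.40 for Ctsl and -0.22 for Psap. Mean UMIs per microglia-like cell ran from 4.41 for Ctsa to 64.3 for Ctsd, with Ctss at 33.2, and r of Ctsd and Ctss was 0.09. The part of sparse counts in the weak values was not tested, and the values are given as a description. Across the 7 classes the same 36 pairs had r of 0.71 to 0.99, in which the microglia-like level is shared by all.

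The genes whose pattern over the 7 classes was most like that of a member were chosen by Pearson's r of log2 UMIs per 10,000 among 5319 genes with at least 200 UMIs. Ctss was closest to Fcrls, Csf1r and Tmem119 (r of 0.996 for the first), and Ctsd to Ly86, Tmem119 and Rab3il1. Grn was closest to Laptm5, Unc93b1 and Fcrls, Ctsz to Fcrls, Hpgd and Fcgr3, and Hexa to Cd33, Ikzf1 and Cd180. Ctsl was closest to Nfkbib, Selplg and Cx3cr1, Ctsb to Sall1, Apbb1ip and Lpcat2, and Ctsa to Lcp1, Edem1 and Slc29a3. Psap differed in its neighbours, Mat2a, Dcxr and Agmo, with r from 0.956 to 0.984. With 7 points that share 1 library, these are descriptions of likeness.

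In the low-mitochondrial cells the 9 genes were at their lowest, and here the libraries differed. They summed to 2.33 UMIs per 10,000 (1.92 to 2.81) in the 289 such cells of the old library and 0.344 (0.308 to 0.383) in the 1315 of the young library. The sum was higher in the old library in each of the 6 low-mitochondrial clusters. In 1 cluster the old value rested on 2 UMIs in 5 cells, and in another on 4 UMIs in 19 cells. The intervals of the libraries overlapped in both. Of the 1430 old cells, 1401 had a barcode that was also in the young library, so most of the 289 did. Median depth was 1576 UMIs per cell in the old and 7235 in the young library, and the microglia markers stood at 3.27 and 0.437 UMIs per 10,000. The part of depth and of free RNA in this difference was not tested. In the young library the neuroblast-like sum, the lowest among the 7 brain classes, was 24.9-fold higher. Over the 6 clusters the young sum ran from 0.285 to 0.512 per 10,000. A Psap UMI, the most frequent, was found in 6.31% of the young low-mitochondrial cells, against 84.5% of neuroblast-like cells.

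The unnamed cluster of 73 cells held a myeloid-like amount of lysosomal transcripts. Its 9 genes summed to 168 UMIs per 10,000 (164 to 173), with Ctsd at 67.0 and Ctss at 38.0. The cluster was led by Ttr, hemoglobin and S100a8 transcripts, and its microglia markers stood at 81.0% of the microglia-like level. Ctsa was at 3.51 (2.89 to 4.22) and Ctsl at 9.81 (8.75 to 11.0), the members furthest below their microglia-like levels of 5.50 and 14.9.

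In microglia-like cells the old library gave nearly the same values. There the old over young ratio of the 9 genes ran from 0.959 for Ctsl (0.920 to 1.00) to 1.01 for Psap (0.963 to 1.05), and Ctsd had 78.3 UMIs per 10,000 in the old and 80.2 in the young library. Of all genes in microglia-like cells, 0.162% were at least 2-fold higher and 0.0101% at least 2-fold lower in the old library, and none of the 9 members was.

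Across the 7 classes the shares of genes past 2-fold between the libraries were small. They were 0.14% higher and 0.0108% lower in the old library in astrocyte-like, 0.172% and 0.0156% in endothelial-like, and 0.236% and 0.165% in pericyte-like cells. The shares of lower genes were 0.0149% in mature oligodendrocyte-like, 0.18% in neuroblast-like and 0.218% in oligodendrocyte precursor-like cells. Of 63 pairs of gene and class, 2 differed at least 2-fold: Ctss in mature oligodendrocyte-like cells, with 24 UMIs in the old and 4 in the young library (5.44-fold, 1.87 to 21.6; 0.223% of genes were at least 2-fold higher in this class), and Ctss in neuroblast-like cells, with 19 and 4 UMIs (4.72-fold, 1.57 to 19.1; 0.21% of genes). In the same 2 classes the microglia markers were also higher in the old library, at 3.13 against 0.744 and at 3.90 against 0.515 UMIs per 10,000, and their part in these ratios was not tested. Over barcodes of the same class in both libraries, Ctss in oligodendrocyte precursor-like cells also passed 2-fold, with 20 against 3 UMIs (5.97-fold, 1.77 to 31.4; 0.155% of genes were higher with all cells of this class). With all cells of the class the ratio went the other way, with 20 against 30 UMIs (0.711, 0.383 to 1.29). Most barcodes being shared, these ratios compare 2 tables of largely the same cells and say nothing of age.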

How the data were processed

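The authors' deposited table gave, per cell and gene, the natural log of 1 plus UMIs per 10,000. The unit was read from the values: with the log reversed, every cell's values added up to 10000, and 100% of values were whole UMIs within a tolerance of 0.01. Cell Ranger 5.0.0 and mm10 are named per the submitters' processing notes, and other settings are not stated there. From the recovered UMIs, all 3893 cells were clustered with scanpy 1.11.5 in Python 3.11.15 (2000 variable genes, 30 principal components, 15 neighbours, Leiden resolution 1) and named from marker lists of 22 classes, a class needing 3 markers found in 25% of a cluster's cells and 4-fold above the remaining cells. Clusters with a median mitochondrial share under 1% were not named. Scrublet called 23 old and 37 young cells as doublets (1.61% and 1.50%), which were kept. A level is the summed UMIs of a class per 10,000, with an exact Poisson interval, shares have Clopper-Pearson intervals, and ratios have exact conditional intervals. Log2 ratios used a pseudocount of 0.1 and genes with at least 20 UMIs, with 2-fold as the call. The calculation was tested on simulated data. The members and lists were chosen with earlier results of these data known. Named list genes are at most the 4 with the highest and the 2 with the lowest ratio of each list. Some genes that this rule names are not reported here. Gnptab lies outside that rule and was chosen after its value was seen. Likeness genes are the 3 with the highest r per member. Coordinates are from GENCODE M21 on GRCm38, promoters from RefSeq.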

Additional observations from a re-analysis of the deposited data

How the results depend on the processing

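The alternatives were a pseudocount of 1, cells weighted equally, Leiden resolutions of 0.5 and 1.5, clustering without lysosomal genes, removal of doublets or of marker-carrying cells, the old library, shared barcodes, a minimum of 200 UMIs and, chosen after the data were seen, the unnamed cluster among the other cells. The 9 members stayed at least 2-fold higher in microglia-like cells in each, except Psap under the pseudocount of 1, with cells weighted equally and with the unnamed cluster, where the count was 8. Some alternatives could hardly change this. Clustering without lysosomal genes left out 2 variable genes and no member, and the minimum of 200 UMIs leaves the member ratios as they were. Removal of marker-carrying cells takes microglia marker UMIs out of the other classes by its construction. No member's microglial ratio changed sign. Of the 63 old to young ratios, 12 changed sign over shared barcodes, 6 of them in oligodendrocyte precursor-like cells, where Ctss moved to a log2 of 1.81 from -0.43 with all cells and Ctsd to 0.41 from -0.82. The count of list genes at least 2-fold higher was 27 of 70 and moved to 13 with a pseudocount of 1, which by its construction shrinks the ratios of low genes; the share of all genes was then 3.11%, against 8.83%. Of 63 levels, 14 moved when marker-carrying cells were left out, 13 without doublets and 13 in the old library, and 13 with cells weighted equally. The non-myeloid class with the highest level stayed the same for at least 6 of the 9 members in each alternative; without marker-carrying cells it became astrocyte-like for Ctsd, oligodendrocyte precursor-like for Ctsl and endothelial-like for Ctss. Thinning to 2000 UMIs lowered the share of microglia-like cells with a Ctsa UMI to 67.5%, and that for Ctsd stayed at 100%. Small classes limit the values: the 10 macrophage-like cells gave 26 Ctsa UMIs. No paired analysis was possible because each age has 1 library.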
